A study of Homo sapiens with 21 samples.

Results

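The genes described here are 35 interferon-stimulated genes, chosen as a list of well-known members of the interferon response and looked up in the deposited gene table, which holds 66738 gene rows. Of the list, 34 were found by symbol. OAS1 was found by its Ensembl ID, because the table gives that row the clone-based name AC004551.1. They were measured in RS4;11, an established human cell line of B-cell precursor acute lymphoblastic leukaemia that carries the KMT2A-AFF1 fusion. Cells were kept for 24 h in asparagine-free medium with iron (-Asn+Fe), in asparagine-free medium (-Asn) or in complete medium (+Asn). The iron was ferric nitrate at 10 µM, given with 0.75 µM hinokitiol, a plant compound that binds iron and carries it across membranes. The labels do not say whether the other media received hinokitiol, so effects of iron, nitrate and hinokitiol cannot be told apart. All 3 media were applied to the same line, so the results describe a single genotype.

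Each medium had 3 RNA sequencing libraries and 3 ChIP libraries for H3K4me3, a histone mark found at active promoters. The RNA is given as read counts per gene, with 29362707 to 42478518 counts per library. The H3K4me3 data are peak positions in 19279 regions, so the width covered by peaks is the measure per library, and signal height was not analysed here. The RNA library -Asn replicate 1 stood apart from the other two of its group. A chi-square of gene counts per degree of freedom came to 42.2 and 46.5 against them and 6.32 between them. Pairs within the other media gave 3.96 to 18.0. Calls that changed without that library, and called values that moved by over 1.5 times, are given with and without it. The labels do not name separate cultures for the replicates, and p-values thus reflect the scatter of these libraries alone, part of which may be technical.

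Type I interferons are secreted alarm signals of virus infection. They bind the receptor pair IFNAR1 and IFNAR2, whose kinases JAK1 and TYK2 phosphorylate STAT2. With IRF9 it takes part in a complex that binds the interferon-stimulated response element in promoters and switches on antiviral effectors. Many of these genes also have a basal level that does not need secreted interferon, and IRF1, IRF3 and IRF7 bind closely related elements.

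The response element is the sequence that ties these genes together, so the promoters of 5 genes that changed and hold it are shown, taken in order of their largest called change. RefSeq promoter windows of GRCh38.p14, which run from 250 bases before to 50 after a start site, were matched for 28 of the 35 genes. The core searched was GAAANNGAAA on either strand, in which N is any base. It was present in 24 of the 37 windows of these genes (64.9%), against 1255 of all 35116 windows (3.57%), and 20 of the 28 genes had it in at least 1 window. A match is a description of these letters and not a measured binding site. Each sequence below is the 250 bases before the RefSeq start, 5′ to 3′ on the gene's strand, with matches to the core in capitals. ISG20 is chr15:88638766-88639015 (plus strand), OAS3 is chr12:112938224-112938473 (plus), IFI44 is chr1:78649539-78649788 (plus), IFIH1 is chr2:162318685-162318934 (minus) and IFI6 is chr1:27672193-27672442 (minus). The window of the second IFIT3 start, chr10:89332279-89332528 (plus), was added after its H3K4me3 values had been seen.
ISG20: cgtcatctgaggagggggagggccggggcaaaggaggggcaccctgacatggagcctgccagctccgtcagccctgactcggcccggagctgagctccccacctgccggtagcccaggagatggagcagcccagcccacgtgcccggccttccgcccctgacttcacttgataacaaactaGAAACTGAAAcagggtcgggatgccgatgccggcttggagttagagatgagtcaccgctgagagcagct
OAS3: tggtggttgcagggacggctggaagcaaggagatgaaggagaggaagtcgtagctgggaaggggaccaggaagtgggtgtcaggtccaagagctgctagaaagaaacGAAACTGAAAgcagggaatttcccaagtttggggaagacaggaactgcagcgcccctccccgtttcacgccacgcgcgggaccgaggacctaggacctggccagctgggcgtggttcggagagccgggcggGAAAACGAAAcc
IFI44: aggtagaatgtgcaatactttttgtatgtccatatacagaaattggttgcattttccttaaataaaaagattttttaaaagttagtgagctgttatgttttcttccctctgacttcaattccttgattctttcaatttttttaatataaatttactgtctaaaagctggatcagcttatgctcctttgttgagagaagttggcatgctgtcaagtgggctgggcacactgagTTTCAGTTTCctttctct
IFIH1: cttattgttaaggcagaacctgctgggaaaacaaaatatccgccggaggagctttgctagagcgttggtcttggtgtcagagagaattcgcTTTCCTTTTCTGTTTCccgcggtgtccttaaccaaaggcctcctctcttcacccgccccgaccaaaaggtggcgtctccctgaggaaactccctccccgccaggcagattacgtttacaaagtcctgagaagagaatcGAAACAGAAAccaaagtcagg
IFI6: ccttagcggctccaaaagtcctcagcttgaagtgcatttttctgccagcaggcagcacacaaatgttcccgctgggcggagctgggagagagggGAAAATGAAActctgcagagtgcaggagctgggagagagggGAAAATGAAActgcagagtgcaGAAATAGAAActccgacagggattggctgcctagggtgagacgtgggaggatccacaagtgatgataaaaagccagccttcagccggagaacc
IFIT3: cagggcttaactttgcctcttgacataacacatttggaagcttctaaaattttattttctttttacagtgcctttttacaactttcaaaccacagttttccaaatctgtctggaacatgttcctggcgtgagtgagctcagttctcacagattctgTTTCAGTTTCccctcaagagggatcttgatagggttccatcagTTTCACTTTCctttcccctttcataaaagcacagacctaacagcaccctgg

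The core began 69 bases before the start of ISG20, 18 before that of IFI44, and 143 and 12 before that of OAS3. In IFIH1 it began 159, 153 and 21 bases before the start, the first pair overlapping, and in IFI6 it stood 3 times, at 156, 115 and 93. The second IFIT3 start had it at 94 and 51 bases. The printed genes moved in different directions: ISG20 was higher in -Asn, OAS3, IFI44 and IFI6 were lower in -Asn, and IFIH1 was higher in -Asn+Fe only when set against either other medium. Some genes with large changes did not hold the core in their window, among them XAF1 and SAMD9L. Only exact matches were counted, and both windows hold near matches, gaaacgaaa in XAF1 and aaaactgaaa in SAMD9L. A window without the exact core is thus not shown to lack a response element.

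Across the list, asparagine starvation moved interferon-stimulated genes in both directions. Of 32 genes with enough reads for the test, 11 were higher and 12 were lower in -Asn than in +Asn (edgeR quasi-likelihood test, Benjamini-Hochberg adjusted over all 17939 genes tested, called at an adjusted p under 0.05). Over all genes, 31.0% were called higher and 30.2% lower, so the shares of the list, with a median log2 fold change of 0.05 against 0.04 over all genes, were close to the background. The largest rises were those of ISG20 and XAF1 and the largest falls those of IFITM2 and OAS3. These counts depend on scaling: with library totals alone 16 were higher and 7 lower, while the median over all genes moved to 0.25.

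With iron added to asparagine-free medium, most called genes of the list were higher. In -Asn+Fe against -Asn, 13 genes were higher and 1, ISG20, was lower, while 14.0% of all genes were higher and 16.8% lower, and the median log2 fold change was 0.19 against -0.01 over all genes. The rises were mostly small: against a minimum change of 1.2-fold only 5 were still called higher, namely OAS1, OAS3, TRIM22, IFIH1 and PARP14. Set against complete medium, -Asn+Fe had 15 genes higher and 10 lower, with backgrounds of 32.9% and 31.9%. With library totals alone that split was 18 and 5, and 6 were lower without -Asn+Fe replicate 1 or without +Asn replicate 1. The 3 comparisons share libraries, so they are not independent of each other.

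**Figure D1:**
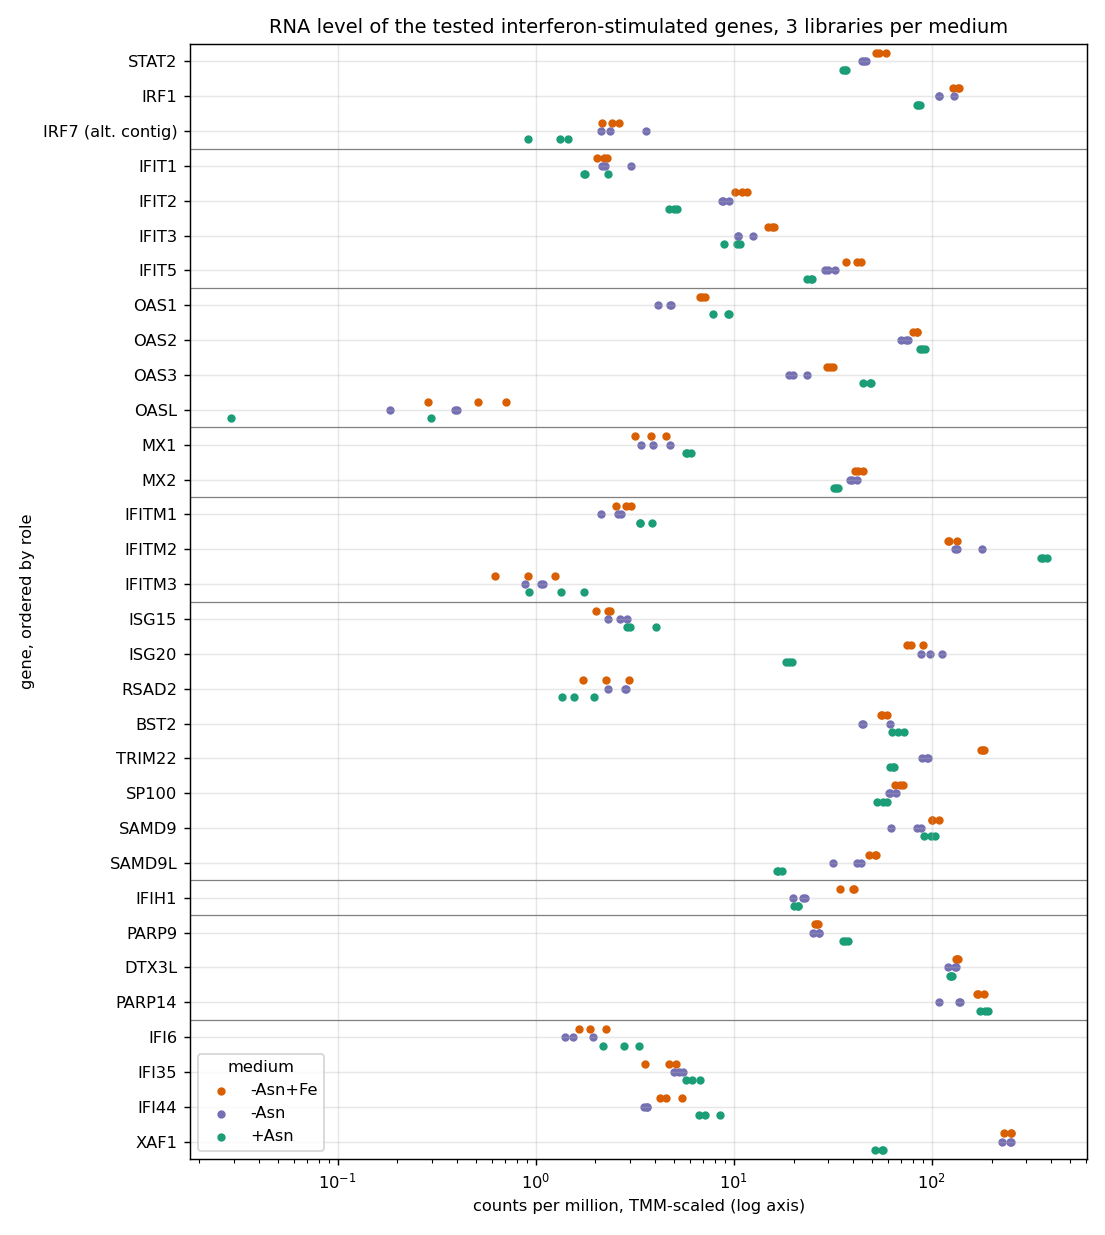
RNA level of the 32 tested genes in every library, as TMM-scaled counts-per-million (CPM) values on a log axis; each point is 1 library, genes run down the page by role, and grey lines part the roles. XAF1 and ISG20 lie far to the right of +Asn in both asparagine-free media, IFITM2 lies to the left, and TRIM22 and IFIH1 stand highest in -Asn+Fe; 1 +Asn library of OASL is at 0 and is not drawn.

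The regulatory factors with enough reads were higher in -Asn than in +Asn. STAT2, which carries the interferon signal to the nucleus, had 54.1, 52.4 and 58.4 CPM in -Asn+Fe, 45.2, 46.5 and 44.2 in -Asn, and 37.0, 35.6 and 36.3 in +Asn. The media did not overlap, and the steps were small, with log2 fold changes of 0.28 ± 0.07 for -Asn+Fe against -Asn (SE, adjusted p = 0.0055) and 0.32 ± 0.07 for -Asn against +Asn (adjusted p = 0.00073). IRF1, a factor that binds the same kind of element, had 128, 136 and 135 CPM in -Asn+Fe, 129.6, 108 and 109 in -Asn, and 87.4, 85.0 and 83.6 in +Asn. It was higher in -Asn than in +Asn by 0.44 ± 0.08 (log2, adjusted p = 9.2e-05). The difference between -Asn+Fe and -Asn missed the threshold (0.20 ± 0.08, adjusted p = 0.051) and passed it without -Asn replicate 1 (0.30, adjusted p = 0.00014), without +Asn replicate 1 (0.22, adjusted p = 0.048) and with DESeq2 (0.22, adjusted p = 0.024). About 22.1% of the exon bases of IRF1 lie under exons of C5orf56 on the other strand. Whether reads were counted by strand is not given in the sources used here, and reads there cannot be assigned with certainty.

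IRF7 and IRF9 each have a second row in the table, on an alternate contig. IRF7, which amplifies the interferon response, has a row on chromosome 11 with 8, 10 and 4 counts summed over the -Asn+Fe, -Asn and +Asn libraries, and a second row on the alternate contig KI270832.1. The contig row had 2.17, 2.41 and 2.64 CPM in -Asn+Fe, 3.60, 2.36 and 2.14 in -Asn, and 0.910, 1.32 and 1.46 in +Asn. On that row IRF7 was higher in -Asn than in +Asn by 1.13 ± 0.23 (log2, adjusted p = 0.00049), and summing both rows left the value at 1.13. IRF9 was at 0 in all 9 libraries on chromosome 14 and on the contig KZ208920.1, which allows up to 0.0288, 0.0256 and 0.025 CPM over the 3 libraries of -Asn+Fe, -Asn and +Asn by counting error only. Its promoter carried H3K4me3 in all 9 libraries, and 45.5% of its exon bases are shared with the overlapping gene AL136295.5 on the same strand, which also had 0 counts. IFI27, another interferon-induced gene, was likewise at 0 on chromosome 14 and on KI270847.1. Among protein-coding genes with such a second row, 395 of 1061 (37.2%) were at 0 in every library, against 1228 of 18896 (6.50%) without one, so a 0 for IRF9 or IFI27 does not show that the gene was silent.

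The IFIT genes, which code for proteins that bind foreign RNA or support that binding, lie together on chromosome 10, and none of the 4 was called lower in any comparison. IFIT2 had 10.1, 11.6 and 11.0 CPM in -Asn+Fe, 8.78, 8.70 and 9.45 in -Asn, and 4.98, 4.72 and 5.15 in +Asn. It was 1.81-fold higher in -Asn than in +Asn (log2 0.86 ± 0.11, adjusted p = 3.2e-06) and 2.2-fold higher in -Asn+Fe than in +Asn. IFIT5 was in the same order, with means of 40.8 ± 3.7, 30.4 ± 1.9 and 24.2 ± 0.8 CPM in -Asn+Fe, -Asn and +Asn (SD, n = 3 each). IFIT5 differed in all 3 comparisons, by 0.43 for -Asn+Fe against -Asn and 0.33 for -Asn against +Asn (log2, edgeR adjusted p = 0.00093 and 0.0029). IFIT3 was called higher in -Asn+Fe than in the other media, with 15.6, 16.0 and 14.9 CPM in -Asn+Fe, 12.4, 10.49 and 10.54 in -Asn, and 8.94, 10.3 and 10.8 in +Asn. Its log2 fold change was 0.47 ± 0.10 for -Asn+Fe against -Asn (adjusted p = 0.0025) and 0.16 for -Asn against +Asn (adjusted p = 0.22). IFIT1 passed in no comparison, at 2.2, 2.5 and 1.9 CPM on average in -Asn+Fe, -Asn and +Asn. With library totals alone, both were called higher in -Asn than in +Asn, IFIT1 by 0.55 (adjusted p = 0.02) and IFIT3 by 0.36 (adjusted p = 0.0055). The IFIT2 difference between -Asn+Fe and -Asn, 0.28 (adjusted p = 0.049), lost its call in 6 of 9 fits that left out 1 library: -Asn+Fe replicate 2 or 3, -Asn replicate 1 or 2, or +Asn replicate 2 or 3 (0.25 to 0.29, adjusted p = 0.051 to 0.13).

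The OAS genes make 2-5A, the short messenger that activates RNase L, and OAS1, OAS3 and OAS2 lie next to each other on chromosome 12 with gaps of 5.22 and 5.14 kb. These 3 were lower in -Asn than in +Asn and higher in -Asn+Fe than in -Asn. OAS3 had 30.7, 31.6 and 29.6 CPM in -Asn+Fe, 19.0, 23.4 and 19.8 in -Asn, and 49.0, 44.6 and 48.4 in +Asn. No 2 media overlapped: OAS3 was 2.28-fold lower in -Asn than in +Asn (log2 -1.19 ± 0.09, adjusted p = 3.6e-09), 1.47-fold higher in -Asn+Fe than in -Asn (0.56 ± 0.09, adjusted p = 0.00013) and still 1.55-fold lower in -Asn+Fe than in +Asn. OAS1 had 6.71, 7.17 and 6.90 CPM in -Asn+Fe, 4.83, 4.13 and 4.77 in -Asn, and 9.42, 7.80 and 9.38 in +Asn. Its log2 fold change was -0.95 ± 0.12 for -Asn against +Asn (adjusted p = 3.2e-06) and 0.60 ± 0.12 for -Asn+Fe against -Asn (adjusted p = 0.0016). The OAS1 value of -0.36 for -Asn+Fe against +Asn (adjusted p = 0.014) lost its call with library totals alone (-0.10, adjusted p = 0.45), without -Asn+Fe replicate 1 (adjusted p = 0.054) and without +Asn replicate 1 (adjusted p = 0.059). OAS2, the most abundant of them, moved least, with means of 82.9, 73.0 and 89.1 CPM in -Asn+Fe, -Asn and +Asn. OAS2 was lower in -Asn than in +Asn by -0.29 (log2, adjusted p = 0.0011), a call that was lost with library totals alone (-0.08, adjusted p = 0.26). OAS2 was higher in -Asn+Fe than in -Asn by 0.18 (adjusted p = 0.043), a call lost without any 1 of the -Asn+Fe libraries, -Asn replicate 2 or +Asn replicate 3 (0.15 to 0.21, adjusted p = 0.055 to 0.15). Between -Asn+Fe and +Asn it was at -0.10 (adjusted p = 0.17), which turned to 0.15 (adjusted p = 0.038) with library totals alone.

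OASL, a relative of OAS1 that lacks the enzyme activity and lies elsewhere on chromosome 12, was barely read. It had 55, 39 and 12 counts summed over the -Asn+Fe, -Asn and +Asn libraries, with exact 95% Poisson intervals of 41.4 to 71.6, 27.7 to 53.3 and 6.20 to 20.96 that cover counting error only. It was called higher in -Asn+Fe than in +Asn (log2 2.14 ± 0.72, adjusted p = 0.016), although the libraries overlapped, and not without -Asn+Fe replicate 2 (1.84), +Asn replicate 2 (1.69) or +Asn replicate 3 (1.55). Its -Asn against +Asn difference of 1.52 (adjusted p = 0.092) was 4.22 and called without +Asn replicate 1 (adjusted p = 0.0026), the library that held nearly all of the +Asn counts. It was also called with the replicate number as a block (1.65, adjusted p = 0.0498) and with no low-count filter (1.52, adjusted p = 0.043).

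**Figure D2:**
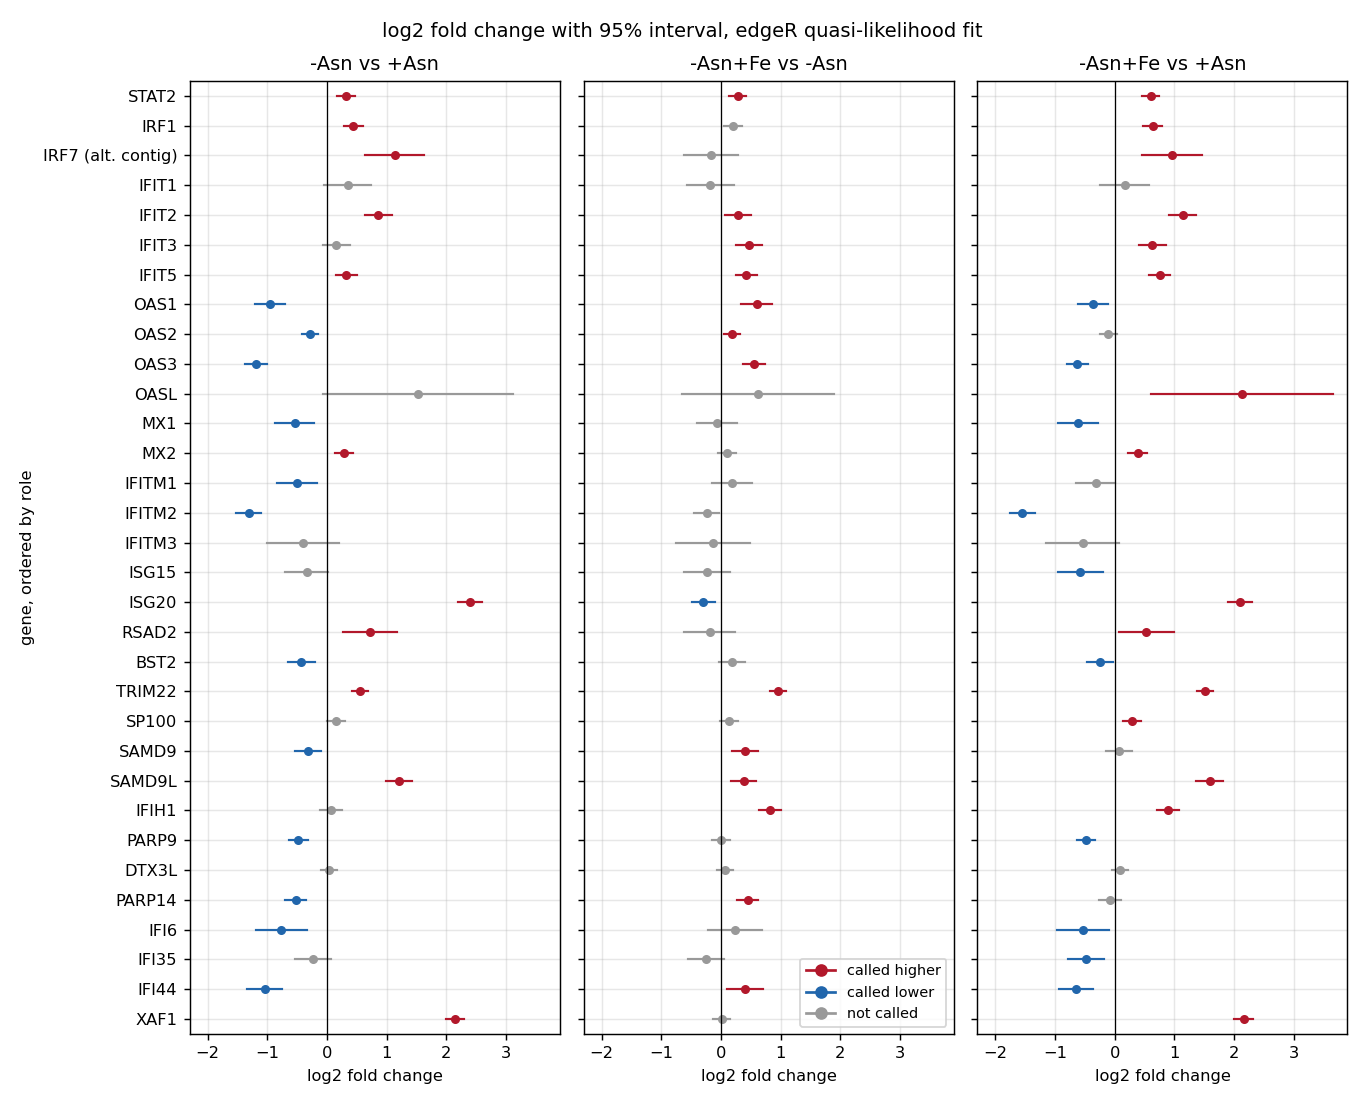
Log2 fold changes of the 32 tested genes in the 3 comparisons, with 95% intervals from the edgeR fit; red marks genes called higher, blue genes called lower and grey genes not called. In -Asn against +Asn the list splits to both sides, from -1.31 for IFITM2 to 2.39 for ISG20, while in -Asn+Fe against -Asn the called genes other than ISG20 lie right of 0.

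The MX genes, dynamin-like GTPases that block virus entry or genome import, sit 10.9 kb apart on chromosome 21 and were called in opposite directions. MX2 had 45.1, 40.7 and 42.3 CPM in -Asn+Fe, 41.8, 38.5 and 39.4 in -Asn, and 31.9, 33.7 and 32.8 in +Asn. MX1 had 3.83, 4.54 and 3.15 CPM in -Asn+Fe, 4.78, 3.39 and 3.92 in -Asn, and 6.05, 5.76 and 5.80 in +Asn. In -Asn against +Asn, MX2 was higher by 0.28 ± 0.07 and MX1 lower at -0.55 ± 0.15 (log2, edgeR adjusted p = 0.0027 and 0.0058), and neither was called between -Asn+Fe and -Asn. The MX1 call was lost with library totals alone (-0.34, adjusted p = 0.059).

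The IFITM proteins hold viruses back at endosomal membranes, and their genes lie together on chromosome 11. IFITM2, per length the most abundant gene of the list in every medium, had 121, 134 and 120.2 CPM in -Asn+Fe, 179, 131 and 133 in -Asn, and 379, 365 and 355 in +Asn. All asparagine-free libraries lay below all +Asn libraries. IFITM2 was 2.48-fold lower in -Asn than in +Asn (log2 -1.31 ± 0.10, adjusted p = 6.6e-09), and 2.93-fold lower in -Asn+Fe than in +Asn (-1.55 ± 0.10, adjusted p = 6.4e-10). IFITM1 had means of 2.81, 2.48 and 3.53 CPM in -Asn+Fe, -Asn and +Asn and was lower in -Asn than in +Asn (-0.51, adjusted p = 0.0099), a call lost with library totals alone (-0.30, adjusted p = 0.099) and without -Asn replicate 2 (adjusted p = 0.057). IFITM1 shares 37.5% of its exon bases with IFITM2 in this annotation, and how reads in shared exons were counted is not given in the sources used here. IFITM3 passed in no comparison, at 0.929, 1.01 and 1.34 CPM in -Asn+Fe, -Asn and +Asn, and was called lower in -Asn+Fe than in +Asn without -Asn+Fe replicate 2 (-0.78, adjusted p = 0.036) or +Asn replicate 3 (-0.76, adjusted p = 0.039). The IFITM genes are near-identical in part, so reads may have been split between them.

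Of the other antiviral effectors, ISG20 showed the largest change of the list. ISG20, an exonuclease that degrades single-stranded RNA, had 78.5, 89.8 and 75.0 CPM in -Asn+Fe, 113, 98.3 and 87.7 in -Asn, and 19.6, 18.4 and 18.9 in +Asn. It was 5.25-fold higher in -Asn than in +Asn (log2 2.39 ± 0.10, adjusted p = 2.9e-12) and 4.28-fold higher in -Asn+Fe than in +Asn. The lower value in -Asn+Fe than in -Asn (-0.30, adjusted p = 0.019) came with overlapping libraries and lost its call without -Asn+Fe replicate 1 (adjusted p = 0.083) or 3 (adjusted p = 0.10). Without -Asn replicate 1 it was -0.19 (adjusted p = 0.046).

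TRIM22, a ubiquitin ligase that restricts retroviruses, rose in both steps. It had 182, 177 and 181 CPM in -Asn+Fe, 88.9, 94.4 and 96.0 in -Asn, and 61.4, 64.6 and 63.8 in +Asn. The step with iron was the larger one, at 1.93-fold (log2 0.95 ± 0.06, adjusted p = 1.2e-08) against 1.47-fold for -Asn over +Asn (0.56 ± 0.06, adjusted p = 9.6e-07), although these steps share the -Asn libraries and their difference was not tested. TRIM22 had the largest called rise of the list in -Asn+Fe against -Asn.

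SAMD9 and SAMD9L are neighbours on chromosome 7, about 12 kb apart, and code for related proteins that block translation of viral and cellular messages. SAMD9L had 52.4, 51.6 and 48.3 CPM in -Asn+Fe, 31.6, 41.9 and 43.6 in -Asn, and 16.5, 17.4 and 16.7 in +Asn. SAMD9 had 108.6, 100.4 and 100.04 CPM in -Asn+Fe, 62.01, 83.6 and 87.8 in -Asn, and 90.7, 103 and 98.9 in +Asn. In -Asn against +Asn, SAMD9L was 2.31-fold higher (log2 1.21 ± 0.10, adjusted p = 3.1e-08) and SAMD9 was 1.253-fold lower (-0.33 ± 0.10, adjusted p = 0.012). Both were higher in -Asn+Fe than in -Asn, SAMD9L by 0.38 and SAMD9 by 0.40 (log2, edgeR adjusted p = 0.0083 and 0.0074), and in both genes the lowest -Asn library was replicate 1. Without that library the values in -Asn+Fe against -Asn were 0.26 for SAMD9L and 0.28 for SAMD9, and SAMD9 in -Asn against +Asn was -0.19 (adjusted p = 0.011), all still called. With library totals alone, SAMD9 was not called in -Asn against +Asn (-0.12, adjusted p = 0.36) and was called higher in -Asn+Fe than in +Asn (0.33, adjusted p = 0.012).

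The remaining effectors changed little or were low. RSAD2, or viperin, makes a chain-terminating nucleotide and had 2.32, 2.67 and 1.62 CPM on average in -Asn+Fe, -Asn and +Asn. It was higher in -Asn than in +Asn (0.72, adjusted p = 0.0077), a call lost without +Asn replicate 2 (adjusted p = 0.052). Its -Asn+Fe against +Asn call (0.53, adjusted p = 0.041) was lost without -Asn+Fe replicate 1 or 3, -Asn replicate 2 or +Asn replicate 1 or 2 (0.32 to 0.54, adjusted p = 0.051 to 0.25). BST2, or tetherin, holds budding virus at the cell surface and had 56.9, 50.1 and 67.5 CPM in -Asn+Fe, -Asn and +Asn. BST2 was lower in -Asn than in +Asn (-0.43, adjusted p = 0.002), a call lost with library totals alone (-0.23, adjusted p = 0.064). Without -Asn replicate 1 it was also called higher in -Asn+Fe than in -Asn (0.36, adjusted p = 0.0002). Its -Asn+Fe against +Asn value of -0.25 (adjusted p = 0.0497) was 0.01 with library totals alone and lost its call without any 1 of the -Asn+Fe libraries or +Asn replicate 1 or 3. SP100, a nuclear body protein, had 68.7, 62.6 and 56.3 CPM in -Asn+Fe, -Asn and +Asn and was called higher in -Asn+Fe than in +Asn (0.29, adjusted p = 0.002). Its -Asn against +Asn value of 0.15 (adjusted p = 0.071) passed the threshold without -Asn replicate 1 (0.16, adjusted p = 0.035), at a minimum of 1 CPM in 3 libraries (0.19, adjusted p = 0.021) and with library totals alone (0.36). ISG15, the ubiquitin-like modifier, had 2.23, 2.61 and 3.31 CPM in the same order and was called lower in -Asn+Fe than in +Asn (-0.58, adjusted p = 0.0093), but not with library totals alone (-0.32, adjusted p = 0.13) or without +Asn replicate 1 (adjusted p = 0.074).

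IFIH1, the long double-stranded RNA sensor MDA5, was higher in -Asn+Fe than in either other medium. It had 40.4, 34.4 and 40.0 CPM in -Asn+Fe, 19.8, 22.5 and 22.9 in -Asn, and 20.1, 21.2 and 20.95 in +Asn. All -Asn+Fe libraries lay above all others, and the -Asn and +Asn libraries overlapped. The fold was 1.76 for -Asn+Fe against -Asn (log2 0.82 ± 0.09, adjusted p = 2.6e-06), and the -Asn against +Asn value was 0.07 with a 95% interval of -0.12 to 0.25 (adjusted p = 0.52). With library totals alone that value was called (0.28, adjusted p = 0.016).

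PARP9, DTX3L and PARP14 are a chromosome 3 group of ADP-ribosylation genes, the first pair of which share a promoter and act as a complex. PARP9 had 25.7, 26.6 and 26.2 CPM in -Asn+Fe, 24.96, 26.75 and 26.8 in -Asn, and 36.5, 37.6 and 35.4 in +Asn. DTX3L had 135, 134 and 132 CPM in -Asn+Fe, 120.3, 130.5 and 132 in -Asn, and 124, 125 and 126 in +Asn. From their shared promoter region, PARP9 was lower in -Asn than in +Asn (-0.48 ± 0.07, adjusted p = 2.1e-05) and DTX3L was not called (0.03, 95% interval -0.10 to 0.16). Between -Asn+Fe and +Asn, DTX3L was at 0.10 (adjusted p = 0.20), and was called without -Asn replicate 1 (0.10, adjusted p = 0.046), at a minimum of 1 CPM in 3 libraries (0.16, adjusted p = 0.027) and in a fit of only those media (0.11, adjusted p = 0.046). With library totals alone DTX3L was called higher in -Asn (0.24, adjusted p = 0.0044) and in -Asn+Fe (0.35, adjusted p = 0.00017) than in +Asn. PARP14 had 184, 169 and 170.5 CPM in -Asn+Fe, 109, 138 and 137 in -Asn, and 175, 186 and 191 in +Asn. PARP14 was lower in -Asn than in +Asn (-0.53 ± 0.09, adjusted p = 4.6e-05) and higher in -Asn+Fe than in -Asn (0.45 ± 0.09, adjusted p = 0.00082).

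XAF1, which opposes the caspase inhibitor XIAP, behaved like ISG20 in size. It had 249.7, 249.7 and 231 CPM in -Asn+Fe, 247, 226 and 251 in -Asn, and 51.4, 56.5 and 55.8 in +Asn. It was 4.42-fold higher in -Asn than in +Asn (log2 2.14 ± 0.07, adjusted p = 3.4e-13), and iron left a difference of 0.01 with a 95% interval of -0.13 to 0.16. XAF1 shares 38.3% of its exon bases with PRAL on the other strand, which had 34 counts over all libraries.

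Among the IFI genes, IFI44 and IFI6 were called lower in -Asn than in +Asn. IFI35 was called lower only in -Asn+Fe against +Asn, and its -Asn against +Asn value of -0.24 (log2) was not called. IFI44, a cytoplasmic protein of the response, had 4.56, 5.47 and 4.23 CPM in -Asn+Fe, 3.63, 3.51 and 3.64 in -Asn, and 6.64, 8.52 and 7.14 in +Asn. It was 2.07-fold lower in -Asn than in +Asn (-1.05 ± 0.14, adjusted p = 5.4e-06) and higher in -Asn+Fe than in -Asn (0.40 ± 0.14, adjusted p = 0.044), the second call being lost without -Asn+Fe replicate 1 or 2, -Asn replicate 2 or 3 or +Asn replicate 3 (0.31 to 0.44, adjusted p = 0.054 to 0.13). IFI6, a mitochondrial and endoplasmic reticulum protein, was lower in -Asn than in +Asn (-0.76, adjusted p = 0.004) at 1.93, 1.63 and 2.77 CPM in -Asn+Fe, -Asn and +Asn. The IFI6 call in -Asn+Fe against +Asn (-0.53, adjusted p = 0.031) was lost without -Asn+Fe replicate 1 or 3 or +Asn replicate 1 or 2. IFI35 had 4.46, 5.26 and 6.19 CPM in that order and was called lower in -Asn+Fe than in +Asn (-0.49, adjusted p = 0.0069) but not with library totals alone (-0.23, adjusted p = 0.17) or without -Asn+Fe replicate 1 (adjusted p = 0.058). IFI44L had 2, 2 and 5 counts summed over the libraries of -Asn+Fe, -Asn and +Asn and was not tested, in contrast to IFI44, which starts 3.65 kb beyond its end.

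Ordered by level per length, the list changed its ranking between media. In CPM per kilobase of exon, IFITM2 led in every medium, at 81.0 ± 4.8 in -Asn+Fe, 95.8 ± 17.3 in -Asn and 237 ± 8.0 in +Asn, followed by BST2 at 51.7 ± 2.0, 45.5 ± 8.8 and 61.3 ± 4.2 (SD, n = 3 each). XAF1 ranked 3 in -Asn+Fe and in -Asn, at 36.8 and 36.5 CPM per kilobase, and 9 in +Asn, at 8.25. TRIM22 ranked 4 in -Asn+Fe, 5 in -Asn and 8 in +Asn, at 30.3, 15.7 and 10.6. In +Asn the neighbours SAMD9 and OAS2, at 14.2 CPM per kilobase each, did not differ beyond their spread, while TRIM22 and XAF1, which follow each other in that order, did. At the low end, MX1, IFIT1, RSAD2, OASL and the IRF7 contig row were at most 1.03 CPM per kilobase in any medium.

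Most of these promoters carried H3K4me3 in every medium. A region lay within 1 kb of the outermost annotated 5′ end of 30 of the 35 genes (85.7%), against 11259 of 19944 protein-coding genes (56.5%). For 25 of the 30 it was called in all 9 libraries. Of the 5 genes without such a region, ISG15 had one at its RefSeq start, and IFITM1, IFI27 and IFI44L had none near a start. IFIT2, for which no RefSeq window was matched, had a region inside the gene in all 9 libraries, 17599 bases from its outermost end. Whether that region lies at another start of IFIT2 was not examined. Its width was not called in -Asn against +Asn (log2 0.26, limma adjusted p = 0.14). Libraries from starved cells had more regions with a peak, 15891 to 17206 in -Asn+Fe and 15554 to 17448 in -Asn against 14741 to 15230 in +Asn, and a wider median peak. With widths centred on each library's median, 5 promoter regions of these genes were wider and 2 narrower in -Asn than in +Asn. Beyond that, the part of these library-wide differences in the widths below was not tested.

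Among 24 promoter regions called in all libraries, 6 were wider in -Asn than in +Asn and none narrower (limma on log2 width, Benjamini-Hochberg over 13883 regions), against backgrounds of 14.6% wider and 1.45% narrower. At an unadjusted p under 0.05, 4524 regions differed over all. The 6 lay at TRIM22, XAF1, SAMD9L, MX2, IRF9 and IRF7. The TRIM22 region covered 2781, 2698 and 2756 bases in -Asn+Fe, 2823, 2805 and 2756 in -Asn, and 1959, 1917 and 1992 in +Asn. The XAF1 region covered 2072, 2209 and 2021 bases in -Asn+Fe, 2222, 2187 and 2224 in -Asn, and 1461, 1516 and 1509 in +Asn. In both, every asparagine-free library was wider than every +Asn library, by 0.51 ± 0.04 at TRIM22 and 0.56 ± 0.05 at XAF1 in -Asn against +Asn (log2 of width, limma adjusted p = 1.9e-05 and 5.7e-05). SAMD9L was wider by 0.66 (adjusted p = 0.0057), with 1021, 1210 and 1043 bases in -Asn and 749, 641 and 687 in +Asn.

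MX2 and IRF9 had narrow regions that widened. The region at the outer 5′ end of MX2 covered 571, 373 and 504 bases in -Asn+Fe, 725, 761 and 903 in -Asn, and 338, 386 and 444 in +Asn. It was 2.05-fold wider in -Asn than in +Asn (limma adjusted p = 0.0067), and a second MX2 region further inside the gene was not (0.02, adjusted p = 0.83). IRF9, with no RNA counts, covered 1162, 919 and 774 bases in -Asn+Fe, 771, 941 and 926 in -Asn, and 584, 608 and 406 in +Asn. The IRF9 call in -Asn against +Asn (0.74, adjusted p = 0.026) was lost without +Asn replicate 3 (adjusted p = 0.08), without -Asn replicate 2 (0.087) or without -Asn replicate 3 (0.086), and that in -Asn+Fe against +Asn (0.84, adjusted p = 0.018) without -Asn+Fe replicate 1 (0.068) or +Asn replicate 3 (0.051). The IRF7 call (0.22, adjusted p = 0.044) was lost with widths centred on each library's median (0.13, adjusted p = 0.097) and in 8 of 9 fits that left out 1 library (0.16 to 0.24, adjusted p = 0.059 to 0.13), all but that without -Asn replicate 1.

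ISG20 carried the mark at its RefSeq start in every medium, and at its outermost annotated end in both asparagine-free media. The region at the RefSeq start covered 2171, 1921 and 2134 bases in -Asn+Fe, 2043, 2347 and 2297 in -Asn, and 1356, 1369 and 1490 in +Asn, a 1.59-fold difference in -Asn against +Asn (log2 0.66 ± 0.07, limma adjusted p = 0.00029). It contains the printed ISG20 promoter. Over the upstream end, 88635582 to 88636431 on chromosome 15, peaks covered 834, 550 and 670 bases in -Asn+Fe and 251, 715 and 613 in -Asn, and none was called in +Asn.

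In -Asn+Fe against +Asn, 4 of the 24 regions were wider, those of TRIM22, XAF1, SAMD9L and IRF9, and none narrower, with backgrounds of 11.7% and 1.92%. Between -Asn+Fe and -Asn no width was called by limma at the members or anywhere, so the backgrounds were 0.0% wider and 0.0% narrower, while 1042 of 13883 regions were under an unadjusted p of 0.05. For 11 of the 13 genes with higher RNA in -Asn+Fe than in -Asn a promoter width was tested, and none was called: IFIH1 was at -0.02, TRIM22 at -0.03 and OAS3 at 0.14 on the log2 scale. Of the 12 genes with lower RNA in -Asn than in +Asn, 9 had a tested promoter width and none was called in that comparison, with IFITM2 at 2826, 2808 and 2735 bases in -Asn and 2766, 2819 and 2793 in +Asn. Of the 4 widened regions whose gene had a tested row on its chromosome, those of TRIM22, XAF1, SAMD9L and MX2, all had higher RNA in -Asn than in +Asn. In that comparison 31.0% of all genes tested were called higher, and 14.6% of all regions were wider and 1.45% narrower. How often both calls fall together over all promoters was not examined, so a link of width to RNA was not tested.

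**Figure D3:**
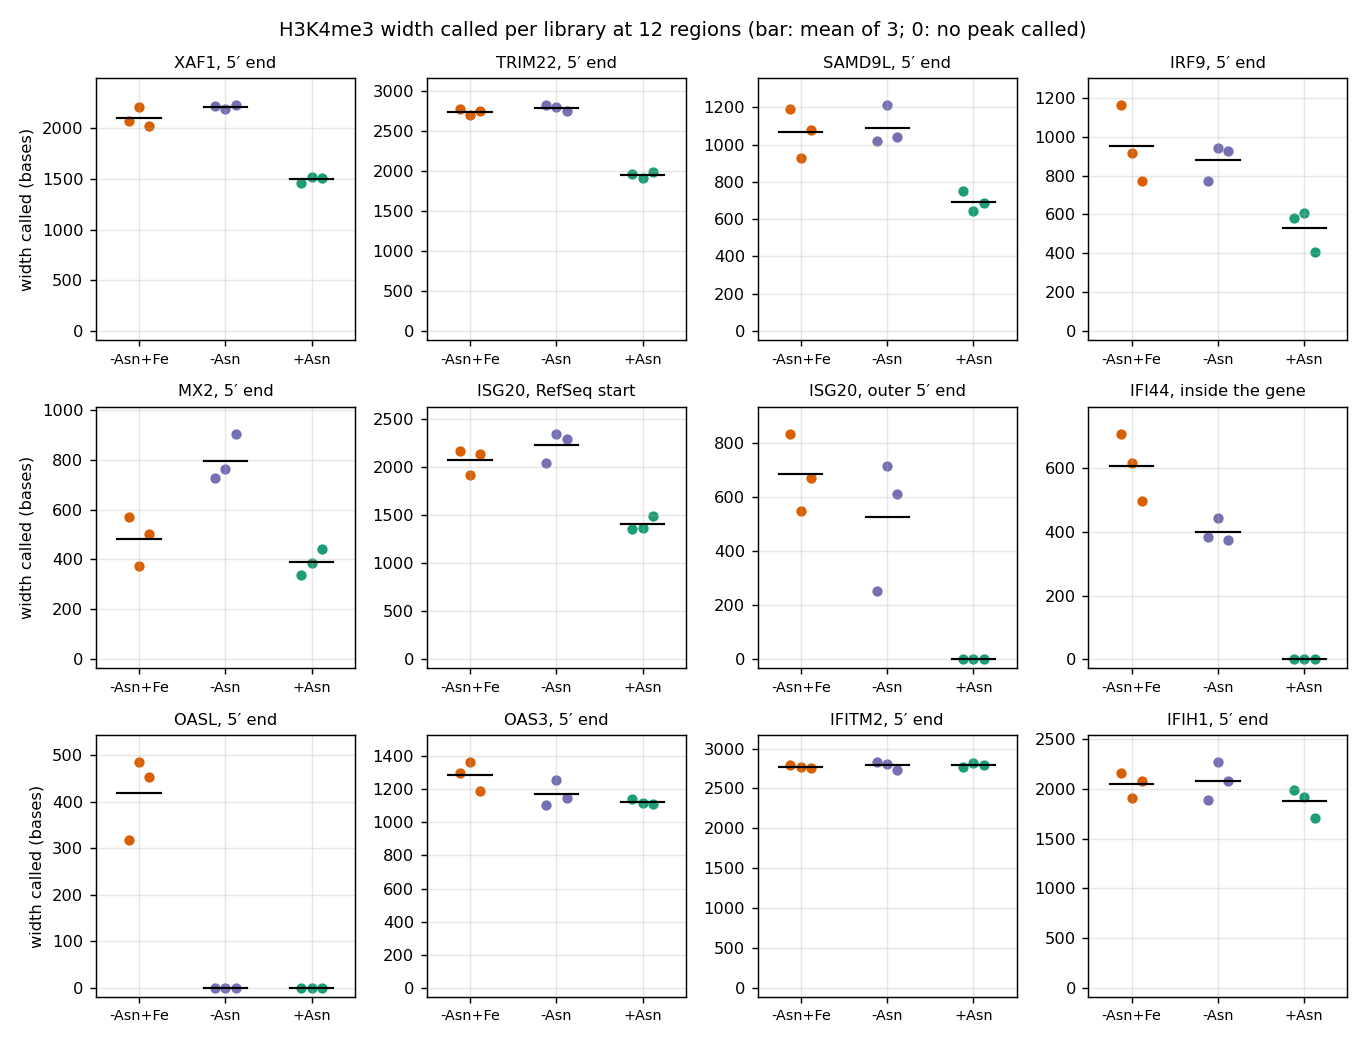
Bases covered by H3K4me3 peaks in each library at 12 regions of the interferon-stimulated genes; points are libraries, bars their mean, and 0 means that no peak was called. XAF1, TRIM22, SAMD9L and the RefSeq start of ISG20 are wider in both asparagine-free media, 2 regions at ISG20 and IFI44 are absent in +Asn, OASL has peaks only in -Asn+Fe among these libraries, and OAS3, IFITM2 and IFIH1 show no called change.

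**Figure D4:**
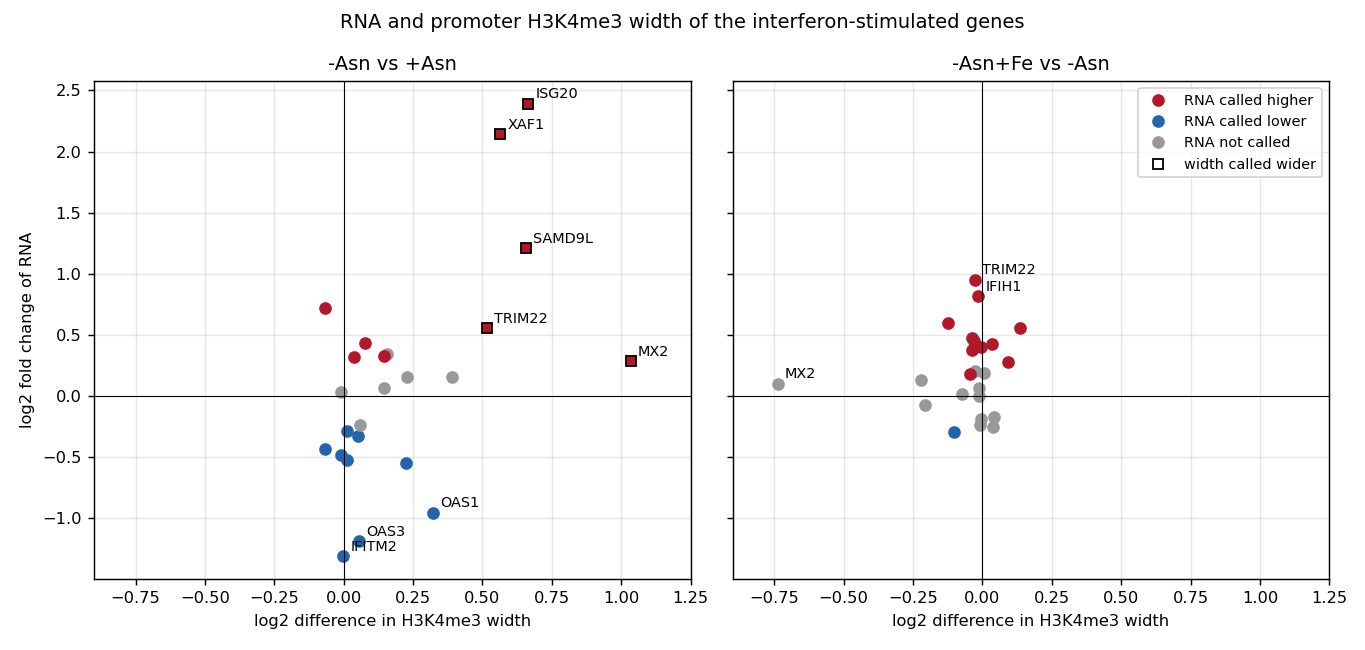
Log2 fold change of RNA against the log2 difference in promoter H3K4me3 width for genes with both measures; red and blue mark RNA called higher and lower, grey RNA not called, and squares widths called wider. In -Asn against +Asn the 5 squares, MX2, SAMD9L, TRIM22, XAF1 and ISG20, all lie above 0, and in -Asn+Fe against -Asn there is no square.

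Whole regions also appeared. A region was counted as gained when all 3 libraries of one medium had a peak and no library of the other did. In -Asn against +Asn, 2 of 36 regions at these genes were gained, at the upstream end of ISG20 and inside IFI44, against 3.0% of all regions, and none was lost, against 0.299%. The IFI44 region, at 78651019 to 78651726 on chromosome 1, covered 708, 617 and 498 bases in -Asn+Fe and 383, 445 and 374 in -Asn, while IFI44 RNA was lower in both than in +Asn. Against -Asn, -Asn+Fe gained 2 of 39, at OASL and at the outer end of IFITM3, against 0.249%, and none was lost, against 0.275%. The OASL region covered 318, 484 and 453 bases in -Asn+Fe. The IFITM3 region covered 223, 231 and 418 bases in -Asn+Fe and lies 5715 bases from the RefSeq start of IFITM3. In -Asn+Fe against +Asn, 5 of 39 were gained, the same regions and that of the second IFIT3 start, against 3.36%, and none was lost, against 0.267%. The IFIT3 region covered 439, 767 and 228 bases in -Asn+Fe and 0, 570 and 316 in -Asn, and it contains the window printed for that start.

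The rest of the interferon pathway, read from a fixed list, held almost no reads of the ligands themselves. The 10 interferon genes of the list had 1, 6 and 0 counts in all over the -Asn+Fe, -Asn and +Asn libraries, of at least 104049129 counts per medium, and IFNA1, IFNA2, IFNB1 and IFNG were at 0 throughout. Of 6 receptor chains, 1 was higher and 1 lower in -Asn than in +Asn, against 31.0% and 30.2% of all genes tested. In -Asn+Fe against -Asn, 0 were higher and 1 lower, against 14.0% and 16.8% of all genes. In -Asn+Fe against +Asn, 1 was higher and 4 lower, against 32.9% and 31.9%. IFNAR2 had 9.17, 10.1 and 15.4 CPM in -Asn+Fe, -Asn and +Asn (-0.61 for -Asn against +Asn, adjusted p = 0.00036). Of the kinases, JAK1 was higher (0.53, adjusted p = 6.6e-06) and TYK2 lower (-0.42, adjusted p = 0.00013) in -Asn than in +Asn. Neither kinase was called between -Asn+Fe and -Asn (JAK1 at 0.11 and TYK2 at 0.02, edgeR adjusted p = 0.26 and 0.86).

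Of 62 tested pathway genes outside the 35, 17 were higher and 30 lower in -Asn than in +Asn, 14 higher and 8 lower in -Asn+Fe than in -Asn, and 18 higher and 27 lower in -Asn+Fe than in +Asn. The shares over all genes in these comparisons were 31.0% and 30.2%, 14.0% and 16.8%, and 32.9% and 31.9%. Large rises in -Asn over +Asn were those of HELZ2, a helicase coactivator (1.88), PARP10 (1.44) and RTP4 (1.15). The largest falls were those of CMPK2, a mitochondrial nucleotide kinase that neighbours RSAD2 (-1.45), GBP4 (-1.38), IRF8 (-1.26), EIF2AK2, the RNA-activated kinase PKR (-1.23), and HERC5, the ISG15 ligase (-1.20). All are log2 fold changes with edgeR adjusted p-values of 2.3e-06 or less. CMPK2 shares only 14 exon bases with RSAD2 and fell while RSAD2 was higher. Between -Asn+Fe and -Asn one gene passed a log2 size of 1, the RNA sensor TLR7, with 44.9 CPM in -Asn+Fe and 21.4 in -Asn (1.07, adjusted p = 1e-07). Against +Asn, -Asn+Fe had HELZ2 higher at 2.24, PARP10 at 1.34, RTP4 at 1.19 and GBP2 at 1.08, and CMPK2 was lowest at -1.50.

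The libraries held the markers of a B-cell precursor line. All 10 precursor B-cell markers had counts in every medium, with summed levels of 2305 to 2396 CPM in -Asn+Fe, 2583 to 2659 in -Asn and 2871 to 2957 in +Asn. The summed levels of myeloid markers were 19.9 to 20.5, 21.2 to 22.6 and 15.1 to 15.5 CPM in -Asn+Fe, -Asn and +Asn. Their part in the results was not tested. Those of T cells, plasmacytoid dendritic cells and erythroid cells were at most 0.761, 1.31 and 0.0886 CPM in any library, and IL3RA and HBA2 were at 0 in all. How reads that match several places were counted is not given, so a 0 for IL3RA or HBA2 does not show that the gene was silent. In such bulk RNA, fewer cells with a transcript and less transcript per cell cannot be told apart.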

How the data were processed

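The authors deposited raw read counts per gene for 9 RNA libraries. Per the submitters' processing notes, the tools were bcl2fastq, STAR (2.7.2a) and Subread (1.6.5, featureCounts), with the hg38 build. The deposited count table also holds exon positions and lengths. The authors' H3K4me3 table gives peak positions per library. For ChIP the notes name MACS2 (2.2.7.1), Picard (2.18.26) and Bowtie2 (2.4.4). The 3 input libraries were not analysed here.

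RNA was fitted in R 4.3.3 by edgeR 4.0.16, with TMM scaling, filterByExpr and a robust quasi-likelihood model of the 9 libraries. CPM values are TMM-scaled, with factors of 1.06 to 1.09 in -Asn+Fe, 1.02 to 1.06 in -Asn and 0.888 to 0.912 in +Asn. Log2 peak widths were tested with limma 3.58.1 over regions called in every library. Calls are at an adjusted p under 0.05, and intervals are 95%. Alternatives were DESeq2 1.42.0, other scalings and filters, a minimum fold, a replicate block, median-centred widths and leaving out each library. Summing chromosome and alternate-contig rows, and the RefSeq-start window, were chosen after seeing the data. The fits were also run on simulated data with known changes, which had the same spread for all genes or regions and no outlying library. Those runs do not bear on the effect of a library that stands apart, such as -Asn replicate 1. Replicate numbers in the labels mark no shared culture; same-numbered RNA libraries correlated at -0.187 to 0.160 in their deviations from group means, so they were not treated as pairs.

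The 35 genes and the pathway and marker lists were chosen with earlier results of these data known. All 35 are accounted for. Other pathway genes are named if called, at a mean of at least 1 CPM and a log2 fold change of at least 1 in size, up to 5 per comparison and direction. Some genes of the pathway list are not reported here by name. Promoters are printed for up to 5 called genes that have a promoter H3K4me3 region and the element, by largest called change. Sequences are from RefSeq (GRCh38.p14).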

Additional observations from a re-analysis of the deposited data

How the results depend on the processing

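With library totals alone, which moved the median log2 fold change over all genes to 0.25, 0.04 and 0.31 in -Asn against +Asn, -Asn+Fe against -Asn and -Asn+Fe against +Asn, 7 genes were lower in -Asn than in +Asn and 5 in -Asn+Fe than in +Asn. Under it OAS2 turned to 0.15, BST2 to 0.0081 and PARP14 to 0.18 in -Asn+Fe against +Asn. Genes called lower in -Asn+Fe than in -Asn numbered 2 with no low-count filter, 0 in a fit of only those media, and 0 against a minimum change of 1.2-fold, where 5 were higher. With widths centred on each library's median, 2 regions were narrower in -Asn and 1 in -Asn+Fe than in +Asn.

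Leaving out each library gave 0 to 2 genes lower in -Asn+Fe than in -Asn, and 6 to 10 lower in -Asn+Fe than in +Asn. It also turned values of -Asn+Fe against -Asn near 0 that were not called: IRF7 ranged from -0.29 to 0.10, IFIT1 from -0.25 to 0.0009, MX1 from -0.18 to 0.0756, IFITM3 from -0.36 to 0.0791, PARP9 from -0.0227 to 0.0283 and XAF1 from -0.0306 to 0.0535. PARP9, at -0.0009 in the reported fit, was 0.011 with DESeq2, 0.0115 with RLE size factors, 0.0468 with library totals, 0.0287 at a minimum of 1 CPM in 3 libraries and 0.0153 with only those media. XAF1 was -0.0023 with no low-count filter. Except for library totals and filters, the cause of these changes was not tested.

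With the replicate number as a block, 12 genes were higher and 12 lower in -Asn than in +Asn, 11 and 1 in -Asn+Fe than in -Asn, and 15 and 10 in -Asn+Fe than in +Asn. The block put PARP9 at 0.0 in -Asn+Fe against -Asn, and 5, 0 and 4 promoter regions were wider in those comparisons. Low counts limit OASL, IFI44L and IRF7 most, and peak positions without read counts limit H3K4me3 to widths.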
